A study of Mus musculus with 12 samples.

Results

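The genes described here are 10 genes of the cellular stress response, chosen by name from the 49315 genes in the table of read counts. They comprise 7 heat shock genes (*Hspa1a*, *Hspa1b*, *Hspb1*, *Hspb8*, *Hspa5*, *Hsp90aa1* and *Dnajb1*) and 3 metallothionein genes (*Mt1*, *Mt2* and *Mt3*). Each was found once in the table by its Ensembl identifier. Bulk RNA-sequencing was performed on the brains of 12 mice at 14 d after a transient occlusion of the middle cerebral artery, and the comparison asked whether *Tet2*-deficient blood cells altered gene expression in the brain after stroke. All recipients were male CD45.1 Pep Boy mice, irradiated with the head shielded at 8 to 12 weeks of age, transplanted with bone marrow (BM) and operated on 8 to 10 weeks later with 30 min of occlusion. In both groups 90% of the transplanted BM cells came from CD45.1 donors that carried *Tet2*. Another 10% came from CD45.2 *Tet2*+/+ donors in the WT group (n = 6) and from CD45.2 *Tet2*-/- donors in the *Tet2*-KO group (n = 6). Thus only blood cells derived from a minority of the graft carried the deletion, and the recipients' own cells had intact *Tet2* in every mouse. The titles and genotype entries of the labels were used for the grouping, because the treatment entry of the *Tet2*-KO samples reads as control cells.

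Heat shock proteins are chaperones that hold, fold or pass on unfolded proteins. When unfolded protein accumulates in the cytosol, the transcription factor HSF1 is released from chaperones, binds heat shock elements in DNA and raises the transcription of genes such as *Hspa1a*, *Hspa1b*, *Dnajb1* and *Hspb1*, whereas unfolded protein in the endoplasmic reticulum raises *Hspa5* through a separate set of sensors, the unfolded protein response. Metallothioneins are small cysteine-rich proteins that bind zinc and copper. *Mt1* and *Mt2* are induced by metals, glucocorticoids and inflammatory cytokines and are made mainly by astrocytes in the brain, whereas *Mt3* is a brain-enriched form that responds little to metals.

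Levels are given as CPM, read counts scaled to a common library total with the TMM method of edgeR. Total counts lay between 12000261 and 15340787 per library in the WT group and from 12625047 to 21049763 in *Tet2*-KO libraries. The defining markers of neurons, astrocytes, oligodendrocytes, microglia and endothelium were present in every library, as the label of brain implies. WT replicate 2 stood apart, with the highest summed level of 8 activated phagocyte markers (9186 CPM) and the lowest of 10 neuronal markers (4048 CPM), and *Tet2*-KO replicate 5 had 4745 CPM of the phagocyte markers while the other 5 *Tet2*-KO libraries did not exceed 3484 CPM. Several of the fold changes and correlations below are also given without these 2 libraries.

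None of the 10 genes differed between the groups at an adjusted p below 0.05 (edgeR quasi-likelihood test with Benjamini-Hochberg adjustment over all 20290 genes tested), where 0.0246% of all tested genes did. The DESeq2 Wald test and limma-voom called none of the 10 either, although DESeq2 called 7.51% of all genes. At an unadjusted p below 0.05, 3 of the 10 were lower with *Tet2*-KO BM cells, the small heat shock genes *Hspb1* and *Hspb8* and the endoplasmic reticulum chaperone *Hspa5*, in a background of 12.2% of all tested genes. At the same threshold 0 of the 10 were higher, in a background of 10.8%. The 6 values of one group did not lie wholly outside the other group's for any of the 10 genes, against 1.09% of all tested genes. The median log2 fold change of *Tet2*-KO over WT was 0.03 over the 10 genes and 0.01 over all tested genes. Of the 3 unadjusted calls 0 were left without WT replicate 2 or without *Tet2*-KO replicate 3, 1 (*Hspb1*) without *Tet2*-KO replicate 2 or 6, and 1 (*Hspb8*) without WT replicate 2 and *Tet2*-KO replicate 5 together. The log2 fold changes themselves stayed below 0, at -0.39 for *Hspb1*, -0.35 for *Hspb8* and -0.20 for *Hspa5* without WT replicate 2, and at -0.39, -0.47 and -0.15 without *Tet2*-KO replicate 3.

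**Figure D1:**
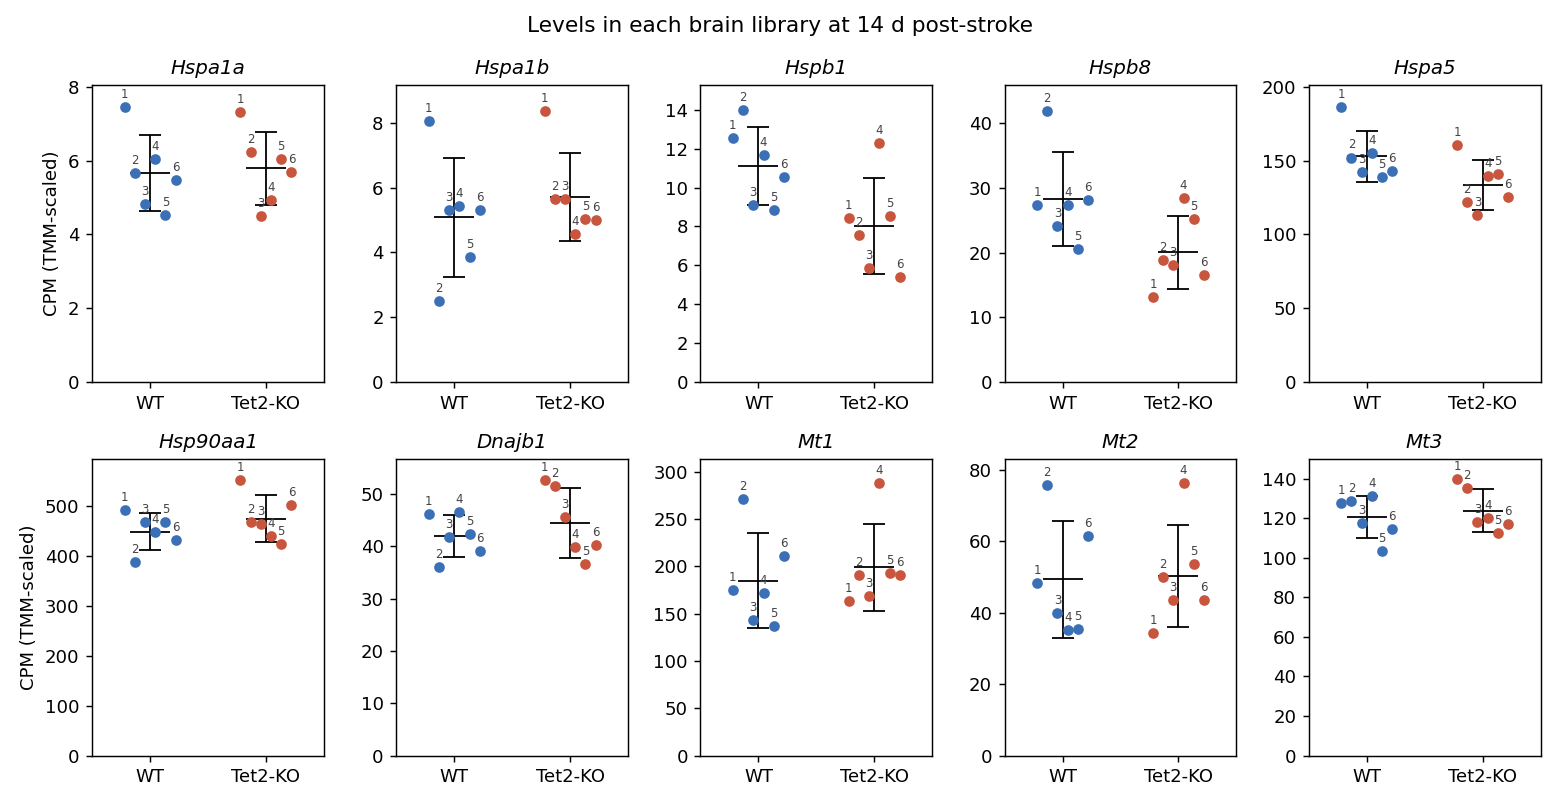
Level of each stress gene (CPM, linear axes from 0) in the 6 WT and 6 Tet2-KO libraries, with points numbered by replicate and black bars for the mean and SD. The groups overlapped for all 10 genes, Tet2-KO replicate 4 was the highest of its group for Hspb1, Hspb8, Mt1 and Mt2, and WT replicate 2 was the highest of its group for the same 4 genes.

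The inducible HSP70 chaperones were expressed at a low level in both groups and did not separate them. *Hspa1a* (ENSMUSG00000091971, mm10 chr17:34969190-34972156, minus strand, 1 exon) lay between 4.53 and 7.45 CPM with a median of 5.57 in WT brains, and between 4.51 and 7.31 CPM with a median of 5.87 in *Tet2*-KO brains. Its near-identical neighbour *Hspa1b* (ENSMUSG00000090877, mm10 chr17:34956436-34959238, minus strand, 1 exon) lay between 2.51 and 8.05 CPM with a median of 5.32 in WT brains, and between 4.58 and 8.36 CPM with a median of 5.33 in *Tet2*-KO brains. Replicate 1 was the highest library of both groups for both genes, and WT replicate 2 was the lowest of all for *Hspa1b*. The log2 fold change of *Tet2*-KO over WT, given with its standard error (SE), was 0.03 (SE 0.14, adjusted p = 0.925, edgeR) for *Hspa1a* and 0.17 (SE 0.22, adjusted p = 0.701, edgeR) for *Hspa1b*. That of *Hspa1b* was 0.06 without WT replicate 2 and *Tet2*-KO replicate 5 (adjusted p = 0.908, edgeR), and with 1 library left out it ranged from 0.027 to 0.34. The lowest values came with WT replicate 2 or *Tet2*-KO replicate 1 removed and the highest with WT replicate 1 removed. The 95% intervals of the fold change, 0.831 to 1.25 and 0.805 to 1.57, leave room for changes of that size in either direction. These levels rest on 55 to 128 reads per library for *Hspa1a* and 35 to 135 for *Hspa1b*.

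Both HSP70 genes are hard to tell apart by short reads. Their starts lie 12918 bases apart, their coding sequences are 99.4% identical, and 38.1% of the 150-base windows of *Hspa1a* and 40.5% of those of *Hspa1b* occur word for word in the other gene, where a single read cannot be placed uniquely. The counts therefore come mainly from the distinct parts of each gene. *Gm20481* lies opposite *Hspa1a* over 564 of its 2967 exon bases and had 0 counts in every library, whereas *Hspa1b* has no such overlap. Without the strand used in counting, it cannot be told whether reads of that stretch were counted for *Hspa1a*. The likeness extends upstream, where the 250 bases before the RefSeq start differ at 3 positions (98.8% identical). These stretches, read from RefSeq (GRCm38.p6, minus strand, 5′ to 3′; *Hspa1a* at chr17:34972157-34972406 and *Hspa1b* at chr17:34959239-34959488), are shown to let the pair be compared, with capitals marking a heat shock element of 2 units (GAANNTTC or TTCNNGAA, which reads the same on both strands).
Hspa1a: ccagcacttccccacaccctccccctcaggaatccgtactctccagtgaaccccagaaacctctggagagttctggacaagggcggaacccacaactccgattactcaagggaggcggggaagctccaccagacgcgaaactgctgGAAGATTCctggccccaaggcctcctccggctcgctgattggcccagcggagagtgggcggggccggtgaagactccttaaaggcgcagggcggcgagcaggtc
Hspa1b: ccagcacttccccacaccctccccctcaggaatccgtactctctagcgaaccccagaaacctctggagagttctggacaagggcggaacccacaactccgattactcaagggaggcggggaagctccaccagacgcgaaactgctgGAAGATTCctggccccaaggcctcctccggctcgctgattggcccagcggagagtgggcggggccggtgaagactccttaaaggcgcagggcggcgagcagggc
Each held 1 such match, 104 bases before the start. Matches of this kind occurred in 12.8% of 32851 promoters, and neither stretch held the longer element with a 3rd GAA or TTC unit after 2 further bases, found in 0.466% of promoters. The log2 ratio of *Hspa1a* to *Hspa1b* counts, which does not depend on scaling, was 0.22 ± 0.49 (SD, n = 6) in WT and 0.03 ± 0.24 (SD, n = 6) in *Tet2*-KO brains (p = 0.489, two-sided exact permutation test). In 11 libraries the ratio of counts was near even, between 0.798 and 1.20, and in WT replicate 2 it was 2.26. Without that library the difference between the groups in the log2 ratio went from -0.19 to -0.0013.

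*Hsp90aa1* and *Dnajb1* gave no difference beyond the spread between mice. *Hsp90aa1* (ENSMUSG00000021270, mm10 chr12:110690605-110702728, minus strand) encodes the stress-inducible cytosolic HSP90, which matures kinases and steroid receptors. It lay between 388 and 491 CPM with a median of 458 in WT brains, and between 425 and 553 CPM with a median of 466 in *Tet2*-KO brains. The lowest library was WT replicate 2 and the highest was *Tet2*-KO replicate 1. Its log2 fold change was 0.08 (SE 0.072, adjusted p = 0.528, edgeR), with a 95% interval of the fold change from 0.952 to 1.18. *Dnajb1* (ENSMUSG00000005483, mm10 chr8:83608193-83612653, plus strand) encodes an HSP40 cochaperone that delivers substrates to HSP70. It lay between 36.0 and 46.5 CPM with a median of 42.1 in WT brains, and between 36.7 and 52.7 CPM with a median of 43.0 in *Tet2*-KO brains. *Tet2*-KO replicates 1 and 2 lay above all WT libraries and the other 4 within their range. The log2 fold change of *Dnajb1* was 0.08 (SE 0.093, adjusted p = 0.626, edgeR).

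The small heat shock genes showed the largest differences of the set, both toward lower levels with *Tet2*-KO BM cells. *Hspb1* (ENSMUSG00000004951, mm10 chr5:135887919-135889563, plus strand) encodes HSP27, which binds unfolding proteins without ATP and stabilises actin filaments. It lay between 8.82 and 13.99 CPM with a median of 11.1 in WT brains, and between 5.39 and 12.3 CPM with a median of 8.005 in *Tet2*-KO brains. In 5 of the 6 *Tet2*-KO libraries the level was below that of every WT library, and the exception was replicate 4 at 12.3 CPM. The log2 fold change was -0.46 (SE 0.18, adjusted p = 0.161, unadjusted p = 0.0225, edgeR), or 0.725-fold with a 95% interval from 0.554 to 0.949. A two-sided exact permutation test on its log2 CPM values gave p = 0.0346 (n = 6 per group). Without WT replicate 2 and *Tet2*-KO replicate 5 the log2 fold change was -0.40 (adjusted p = 0.262, edgeR).

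The 250 bases before the RefSeq start of *Hspb1* (GRCm38.p6, chr5:135887669-135887918, plus strand, 5′ to 3′) are shown for comparison with the HSP70 genes, with capitals marking heat shock elements of 2 units as above.
Hspb1: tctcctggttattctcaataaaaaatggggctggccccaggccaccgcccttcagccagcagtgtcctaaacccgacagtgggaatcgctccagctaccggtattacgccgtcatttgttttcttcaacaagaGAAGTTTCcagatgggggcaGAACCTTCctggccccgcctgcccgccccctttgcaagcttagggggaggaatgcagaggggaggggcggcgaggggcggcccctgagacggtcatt
This stretch held 2 matches, 117 and 97 bases before the start. The same window held 0 matches before *Hspb8* and before either RefSeq start of *Dnajb1*. A match to these letters describes the sequence and is not evidence of binding.

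*Hspb8* (ENSMUSG00000041548, mm10 chr5:116408491-116422864, minus strand) encodes a small heat shock protein that works with the cochaperone BAG3 to route damaged proteins to autophagy. It lay between 20.6 and 41.9 CPM with a median of 27.3 in WT brains, and between 13.1 and 28.4 CPM with a median of 18.4 in *Tet2*-KO brains. In 4 of the 6 *Tet2*-KO libraries, replicates 1, 2, 3 and 6, the level was below that of every WT library, and replicates 4 and 5 lay within the WT range. The log2 fold change was -0.50 (SE 0.20, adjusted p = 0.179, unadjusted p = 0.0316, edgeR), or 0.709-fold with a 95% interval from 0.521 to 0.965. The two-sided exact permutation test gave p = 0.0368 (n = 6 per group). Without WT replicate 2 and *Tet2*-KO replicate 5 the log2 fold change was -0.42 (adjusted p = 0.203, edgeR). In bulk tissue, fewer cells that express a gene and less RNA per cell cannot be told apart.

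*Hspa5* (ENSMUSG00000026864, mm10 chr2:34771970-34777547, plus strand) encodes BiP, the HSP70 of the endoplasmic reticulum and the best known target of the unfolded protein response. It lay between 139 and 186 CPM with a median of 147 in WT brains, and between 113 and 160 CPM with a median of 133 in *Tet2*-KO brains. *Tet2*-KO replicates 2, 3 and 6 lay below all WT libraries, and replicate 1 was the highest of each group. The log2 fold change was -0.19 (SE 0.087, adjusted p = 0.198, unadjusted p = 0.0404, edgeR), or 0.874-fold with a 95% interval from 0.768 to 0.993. The two-sided exact permutation test gave p = 0.0779 (n = 6 per group), and with upper quartile scaling the log2 fold change was -0.16 and no longer below 0.05 before adjustment. Without WT replicate 2 and *Tet2*-KO replicate 5 it was -0.21 (adjusted p = 0.250, edgeR). The 30 bases from chr2:34772020-34772049 (GRCm38.p6, plus strand, 5′ to 3′) hold a match to the endoplasmic reticulum stress element. They are shown because this element marks targets of the unfolded protein response, with capitals marking CCAAT and CCACG with 9 bases between.
Hspa5: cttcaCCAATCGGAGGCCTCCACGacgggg
This motif, searched on both strands, occurred once in the 250 bases before the RefSeq start of *Hspa5*, 65 bases from it, and in 0.113% of 32851 promoters. The match lies downstream of the GENCODE start of *Hspa5* at position 34771970. It describes the sequence and is not evidence of binding.

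**Figure D2:**
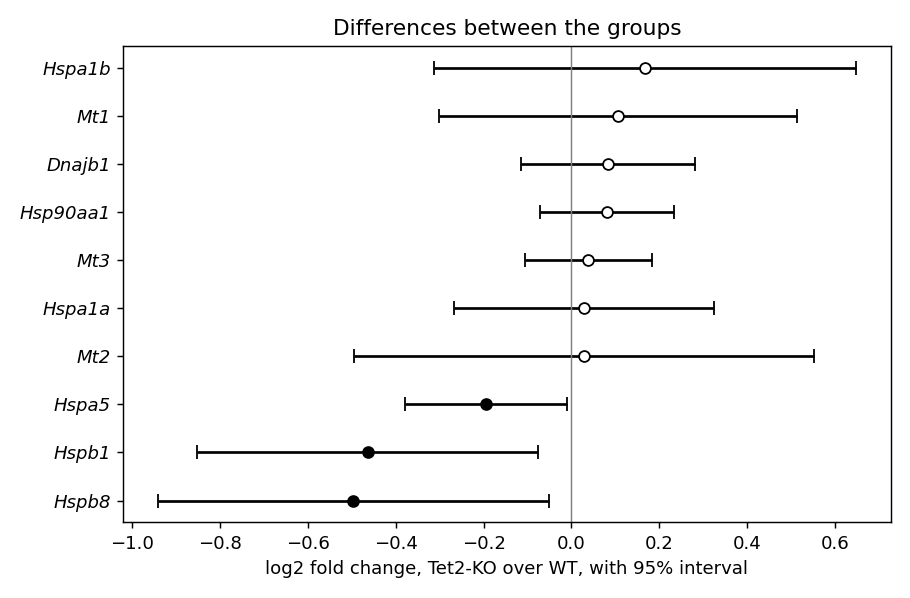
Log2 fold change of Tet2-KO over WT (x axis) for each of the 10 stress genes (y axis), with its 95% interval from edgeR and filled points for an unadjusted p below 0.05. The intervals of Hspb8, Hspb1 and Hspa5 lie below 0 and those of the other 7 genes include 0.

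Metallothioneins were abundant in every library and gave no difference beyond the spread between mice. *Mt1* (ENSMUSG00000031765, mm10 chr8:94179082-94180327, plus strand) lay between 137 and 271 CPM with a median of 173 in WT brains, and between 163 and 288 CPM with a median of 191 in *Tet2*-KO brains. *Mt2* (ENSMUSG00000031762, mm10 chr8:94172664-94173568, plus strand) lay between 35.2 and 75.8 CPM with a median of 44.1 in WT brains, and between 34.4 and 76.3 CPM with a median of 46.9 in *Tet2*-KO brains. *Mt3* (ENSMUSG00000031760, mm10 chr8:94152607-94154146, plus strand) lay between 104 and 131 CPM with a median of 123 in WT brains, and between 112 and 140 CPM with a median of 119 in *Tet2*-KO brains. One library of each group, WT replicate 2 and *Tet2*-KO replicate 4, stood high for both *Mt1* and *Mt2*, whereas for *Mt3* these libraries had 129 and 120 CPM, within the range of the rest. The log2 fold changes were 0.11 (SE 0.19) for *Mt1*, 0.03 (SE 0.24) for *Mt2* and 0.04 (SE 0.068) for *Mt3*, with edgeR adjusted p of 0.781, 0.962 and 0.780. The 95% intervals of the fold change ran from 0.811 to 1.43 for *Mt1*, from 0.709 to 1.47 for *Mt2* and from 0.929 to 1.14 for *Mt3*, so the data leave room for larger differences in the first 2 than in the third. Without *Tet2*-KO replicate 4 the log2 fold changes of *Mt1* and *Mt2* turned to -0.03 and -0.13, and without WT replicate 2 and *Tet2*-KO replicate 5 they were 0.26 (adjusted p = 0.464, edgeR) and 0.18 (adjusted p = 0.746, edgeR).

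The 3 metallothionein genes lie side by side on chromosome 8, with 6418 bases between the starts of *Mt2* and *Mt1* and 20057 between those of *Mt3* and *Mt2*. The coding sequences of *Mt1* and *Mt2* are 79.2% identical and those of *Mt3* and *Mt1* 64.7%, and no 150-base window is shared, so their reads can be told apart. *Gm45774* lies opposite *Mt2* over 432 of its 588 exon bases and had 31 to 155 counts. The strand used in counting is not given in the sources used here, and reads of this pair cannot be told apart without it. The stretches upstream of the RefSeq starts (GRCm38.p6, plus strand, 5′ to 3′; *Mt1* at chr8:94178839-94179081, *Mt2* at chr8:94172368-94172617 and *Mt3* at chr8:94152357-94152606) are shown to let the 3 genes be compared. Capitals mark the core of the metal response element (TGCACNC or TGCGCNC, both strands), the site of the zinc-sensing factor MTF1.
Mt1: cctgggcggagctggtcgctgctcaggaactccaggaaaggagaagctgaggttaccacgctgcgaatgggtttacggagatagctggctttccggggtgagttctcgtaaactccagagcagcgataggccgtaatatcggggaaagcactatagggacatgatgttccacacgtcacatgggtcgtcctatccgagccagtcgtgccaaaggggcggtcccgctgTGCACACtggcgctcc
Mt2: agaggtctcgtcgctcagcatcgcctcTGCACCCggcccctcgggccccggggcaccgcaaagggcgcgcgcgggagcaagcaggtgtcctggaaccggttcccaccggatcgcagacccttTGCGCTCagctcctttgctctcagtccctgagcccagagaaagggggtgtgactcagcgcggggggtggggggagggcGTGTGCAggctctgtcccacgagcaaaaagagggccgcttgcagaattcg
Mt3: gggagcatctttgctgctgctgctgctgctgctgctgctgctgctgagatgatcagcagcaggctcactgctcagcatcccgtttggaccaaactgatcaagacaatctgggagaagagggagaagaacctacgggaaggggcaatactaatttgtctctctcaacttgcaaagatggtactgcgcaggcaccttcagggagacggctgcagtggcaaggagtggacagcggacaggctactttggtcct
The core occurred 3 times before *Mt2*, 1 time before *Mt1* and 0 times before *Mt3*, and in 21.4% of 32851 promoters. Such a match is not evidence of binding, and its bearing on the levels of these genes was not tested. Shorter transcripts of *Mt1* start at positions 94179211 and 94179241 in GENCODE, and the bases directly before those starts are not in this window.

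The balance between the metallothioneins was also compared within libraries. The log2 ratio of *Mt1* to *Mt2* counts was 1.92 ± 0.18 (SD, n = 6) in WT and 2.00 ± 0.15 (SD, n = 6) in *Tet2*-KO brains (p = 0.433, two-sided exact permutation test), and *Mt1* had 3.42 to 4.87 times the counts of *Mt2* in single libraries. The log2 ratio of *Mt3* to the sum of *Mt1* and *Mt2* was -0.92 ± 0.34 (SD, n = 6) in WT and -0.98 ± 0.37 (SD, n = 6) in *Tet2*-KO brains (p = 0.749, two-sided exact permutation test). *Mt3* counts were 0.330 times this sum in *Tet2*-KO replicate 4 and 0.371 times in WT replicate 2, the lowest ratios of all, and up to 0.708 times in *Tet2*-KO replicate 1.

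Per kilobase of merged exon, which allows only a rough comparison between genes, *Mt1* stood highest at 154 ± 37.0 CPM per kb (SD, n = 12), followed by *Hsp90aa1* at 118 ± 10.7, *Mt3* at 115 ± 9.75 and *Mt2* at 84.7 ± 24.95. *Hspa5* followed at 33.9 ± 4.56 CPM per kb, then *Dnajb1* at 13.5 ± 1.68, *Hspb8* at 12.4 ± 3.88 and *Hspb1* at 9.28 ± 2.61. *Hspa1a* and *Hspa1b* were lowest, both at 1.93 CPM per kb. Among neighbours in this order, the ranges over libraries were apart only between *Mt2* and *Hspa5*, between *Hspa5* and *Dnajb1*, and between *Hspb1* and *Hspa1a*. The merged exon length counts the bases of every annotated transcript, 1246 for *Mt1* and 588 for *Mt2*, and can exceed the length of the RNA made. No correction was made for stretches that *Hspa1a* and *Hspa1b* share or for the gene opposite *Mt2*.

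The genes differed in how much they varied among mice of the same group. The pooled SD of log2 CPM within groups was 0.44 for *Hspa1b*, 0.42 for *Mt2*, 0.37 for *Hspb8*, 0.35 for *Hspb1* and 0.33 for *Mt1*, against a median of 0.19 over all tested genes. *Mt3* and *Hsp90aa1* both had 0.13, below that median. The order depends on the scale. On the variance stabilizing transformation of DESeq2 the percentile among all tested genes was 55.1 for *Mt3* and 61.5 for *Hsp90aa1*, against 30.2 and 30.9 on log2 CPM, and it was 80.4 for *Hspa5*, 80.03 for *Dnajb1* and between 92.6 and 97.7 for the 5 more variable genes. From the lowest to the highest of the 12 libraries *Hspa1b* spanned 3.33-fold, *Hspb8* 3.19-fold, *Mt1* 2.10-fold and *Mt3* 1.35-fold.

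Several of the genes moved together from mouse to mouse. Pearson correlations of log2 CPM were computed over the 12 libraries for all 45 pairs, with permutation tests of 100000 resamples and Benjamini-Hochberg adjustment over the pairs, and 7 pairs passed 0.05 by Pearson's r, of which 2 also passed by Spearman's rho. *Mt1* and *Mt2* were the closest pair (r = 0.92, adjusted permutation p = 0.0027; rho = 0.92, adjusted permutation p = 0.00315). Their r was 0.92 within WT and 0.94 within *Tet2*-KO, 0.78 without the 2 libraries farthest from the median of *Mt1*, and 0.89 without WT replicate 2 and *Tet2*-KO replicate 5. The 2 farthest libraries were found for each relation from its first-named measure and are not the same 2 throughout. *Hspb1* and *Hspb8* also moved together (r = 0.80, adjusted permutation p = 0.0247; rho = 0.89, adjusted permutation p = 0.00585), with r = 0.70 without the 2 farthest libraries, 0.88 within WT and 0.60 within *Tet2*-KO. *Hspb8* and *Hsp90aa1* moved in opposite directions (r = -0.86, adjusted permutation p = 0.0164; rho = -0.76, adjusted permutation p = 0.0695), with r = -0.82 within WT, -0.93 within *Tet2*-KO, -0.59 without the 2 farthest libraries and -0.79 without WT replicate 2 and *Tet2*-KO replicate 5. *Hspa1a* and *Hspa1b*, the closest pair by sequence, were not among the 7.

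**Figure D3:**
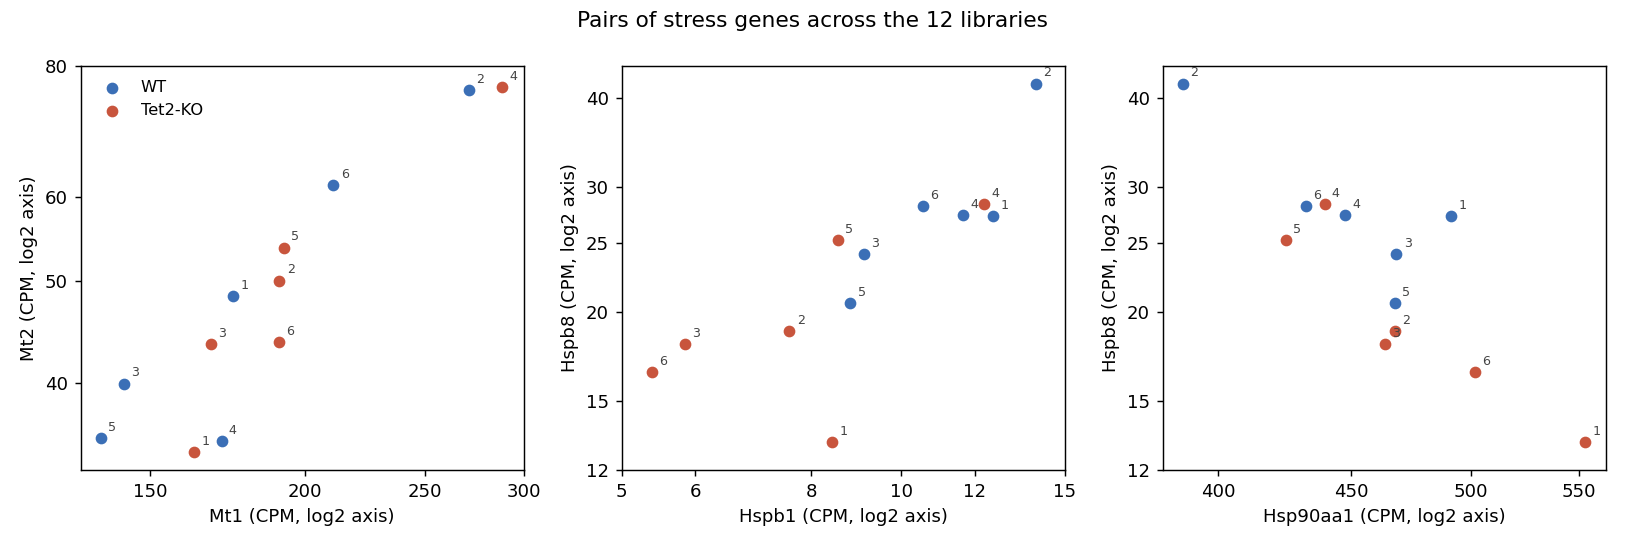
Levels of 3 pairs of stress genes in the 12 libraries (CPM, both axes on a log2 scale), with WT in blue and Tet2-KO in red, numbered by replicate. Mt1 and Mt2 rise together in both groups with WT replicate 2 and Tet2-KO replicate 4 at the top, Hspb1 and Hspb8 rise together, and Hspb8 is lower where Hsp90aa1 is higher.

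The other 4 pairs past the adjusted threshold by Pearson's r joined *Hsp90aa1*, *Dnajb1* and *Hspa1b* to each other, with r between 0.71 and 0.78 and rho between 0.48 and 0.76, and *Hspb1* to *Hspa5* with r = 0.74. Without the 2 farthest libraries r was 0.32 for *Hspa1b* with *Hsp90aa1*, 0.44 for *Hsp90aa1* with *Dnajb1* and 0.44 for *Hspa1b* with *Dnajb1*, while for *Hspb1* with *Hspa5* it was 0.76. Within WT and within *Tet2*-KO r was 0.81 and 0.81 for the first of these pairs, 0.82 and 0.67 for the next and 0.79 and 0.78 for *Hspa1b* with *Dnajb1*. Without WT replicate 2 and *Tet2*-KO replicate 5 it was 0.63, 0.56 and 0.65. The plot of correlations between all pairs shows the chaperones *Hspa1b*, *Hsp90aa1* and *Dnajb1* with positive values among themselves and negative values with *Hspb8* and *Mt2*.

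**Figure D4:**
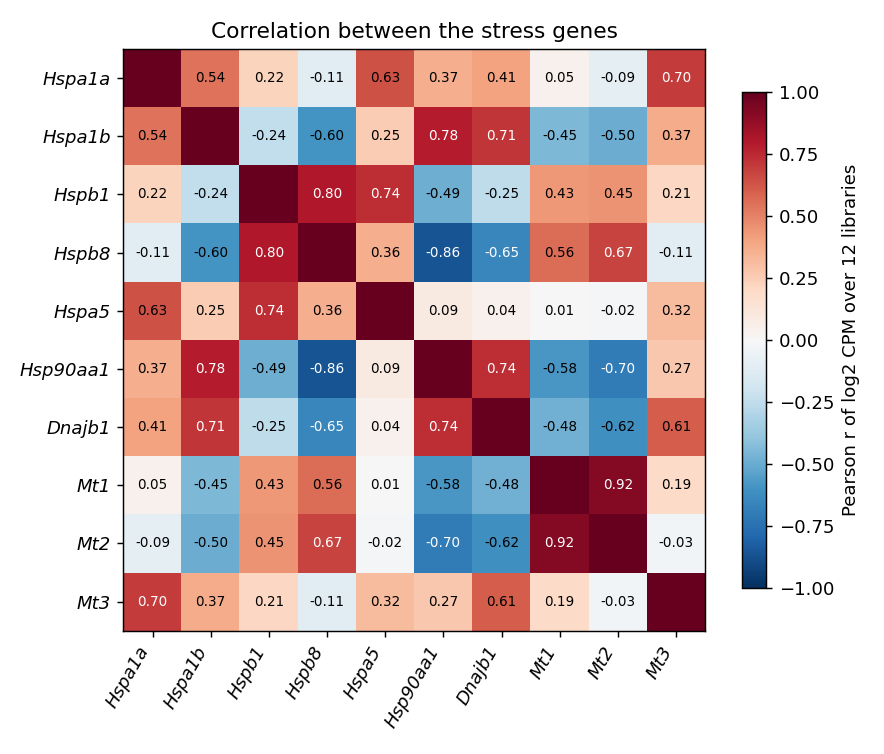
Pearson r of log2 CPM over the 12 libraries for each pair of the 10 stress genes, both axes listing the genes and colour running from blue (-1) to red (1). The highest value is that of Mt1 with Mt2 (0.92) and the lowest that of Hspb8 with Hsp90aa1 (-0.86).

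Among 19100 genes with a mean of at least 1 CPM, the genes most like each of the 10 were found by Pearson's r over the same 12 libraries, as a description. For *Hspb8* these were *Kdelr2*, *Nek6* and *Asap3* with r of 0.99 each, and for *Dnajb1* they were *Epop* at 0.99, *Mprip* at 0.97 and *Igsf9b* at 0.96. *Hspa5* was most like *Pdia6* at 0.91, *Cct4* at 0.89 and *Umps* at 0.88. *Mt1* was most like *Hepacam* at 0.92, *Mt2* at 0.92 and *2410004P03Rik* at 0.91, and *Mt2* most like *Endod1* at 0.96, *Tmem125* at 0.94 and *Ak3* at 0.93. *Mt3* followed *Amz2* at 0.92, *Dnajb2* at 0.91 and *Elob* at 0.88. *Hsp90aa1* followed *Tcf20* at 0.97, *Chst10* at 0.96 and *Helz* at 0.96, and *Hspb1* followed *Ttc16* at 0.95, *Hadha* at 0.94 and *Exoc3l4* at 0.93. *Hspa1a* followed *Slc36a1*, *Gm48562* and *Atg12* with r between 0.84 and 0.86, and *Hspa1b* followed *Sptb*, *Rita1* and *Ppa2* with r between 0.91 and 0.92. All these values share the libraries, their depth and their cell makeup.

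Markers of several cell types moved with the small heat shock genes. They were counted at an unadjusted p below 0.05 by edgeR, which 12.2% of all tested genes passed toward lower and 10.8% toward higher levels. Of 10 neuronal markers 8 were higher in *Tet2*-KO brains at an unadjusted p below 0.05, with a summed level of 4048 to 5692 CPM in WT and 5227 to 6928 CPM in *Tet2*-KO libraries. Of 8 reactive astrocyte markers 5 were lower (1278 to 3326 CPM in WT, 512 to 2234 CPM in *Tet2*-KO), as were 6 of 8 activated phagocyte markers (3864 to 9186 CPM and 989 to 4745 CPM), 6 of 8 mural cell and fibroblast markers (705 to 1442 CPM and 232 to 870 CPM) and 2 of 7 endothelial markers (310 to 385 CPM and 275 to 346 CPM). Of 7 neutrophil markers 4 passed the filter on low counts, and the other 3 had at most 11 counts in any library. *S100a8* (4.52 ± 1.91 CPM in WT, 1.01 ± 0.389 in *Tet2*-KO, SD, n = 6 each) and *S100a9* (2.18 ± 0.962 and 0.305 ± 0.225 CPM) were lower after adjustment by edgeR, and *S100a9* passed the filter through its level in the WT group. Further, 1 of 7 choroid plexus and ependymal markers was lower. Of 5 red blood cell markers 3 were higher. Resting microglia and oligodendrocytes gave 0 of 8 and 0 of 7 in either direction by edgeR, and 1 of 8 astrocyte markers was higher. The counts for choroid plexus and ependyma and for astrocytes lay near the shares of all tested genes. After adjustment DESeq2 called 3 neuronal markers higher. It called 1 reactive astrocyte, 2 activated phagocyte, 2 mural cell and fibroblast, 1 endothelial and 3 neutrophil markers lower, and 0 in each other marker list. Summed levels follow mainly the most abundant genes of a list. Among reactive astrocyte markers this was *Gfap*, at a mean of 1058 CPM in WT and 834 CPM in *Tet2*-KO brains. *Gfap* was not among the 5 called lower (unadjusted p = 0.325, edgeR). Among activated phagocyte markers it was *Apoe*, at 2637 and 1337 CPM. Among neutrophil markers it was *Csf3r*, at 83.1 and 45.7 CPM, so that sum says little of *S100a8* and *S100a9*.

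The log2 CPM of each stress gene was set against the log2 summed level of each of the 11 marker lists over the 12 libraries, 110 relations in all, of which 31 passed 0.05 after adjustment by Pearson's r and 16 by both coefficients. By both coefficients *Hspb8* gave 7, *Hspb1* 6 and *Hsp90aa1* 1, against 9, 7 and 8 by Pearson's r, whereas *Hspa1a*, *Hspa5* and *Mt3* gave 0 by either. *Hspb8* was lower where the neuronal markers were higher (r = -0.97, rho = -0.95, permutation p = 1e-05 for both, the smallest that 100000 resamples can give, adjusted p = 0.000367 and 0.00055), with r = -0.94 within WT, -0.97 within *Tet2*-KO and -0.96 without the 2 farthest libraries. It was higher where the reactive astrocyte markers were higher (r = 0.95, rho = 0.97, with the same permutation p), with r = 0.96 within WT, 0.95 within *Tet2*-KO and 0.87 without the 2 farthest libraries. This was not particular to reactive astrocytes. For *Hspb8* r was 0.95 with microglial, 0.95 with neutrophil (mainly *Csf3r*), 0.94 with activated phagocyte and 0.93 with endothelial markers. It was 0.91 with mural cell and fibroblast markers, which did not pass by rho, and -0.92 with red blood cell markers. *Hspb1* was also lower where neuronal markers were higher (r = -0.84, adjusted permutation p = 0.0046; rho = -0.91, adjusted permutation p = 0.00247), with r = -0.81 within WT, -0.75 within *Tet2*-KO and -0.95 without the 2 farthest libraries. *Mt2* was higher where the oligodendrocyte markers were higher (r = 0.79, adjusted permutation p = 0.0181; rho = 0.78, adjusted permutation p = 0.0374), with r = 0.85 within WT, 0.80 within *Tet2*-KO and 0.84 without the 2 farthest libraries. By Pearson's r alone *Mt2* also passed with reactive astrocyte (r = 0.73, adjusted permutation p = 0.0260) and microglial markers (r = 0.69, adjusted permutation p = 0.0406). Within WT and *Tet2*-KO r was 0.78 and 0.96 for the former, and 0.85 and 0.90 for the latter. The relation of *Mt2* was thus not particular to oligodendrocytes by Pearson's r. The part of the cell makeup in the lower *Hspb1* and *Hspb8* of *Tet2*-KO brains was not tested.

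**Figure D5:**
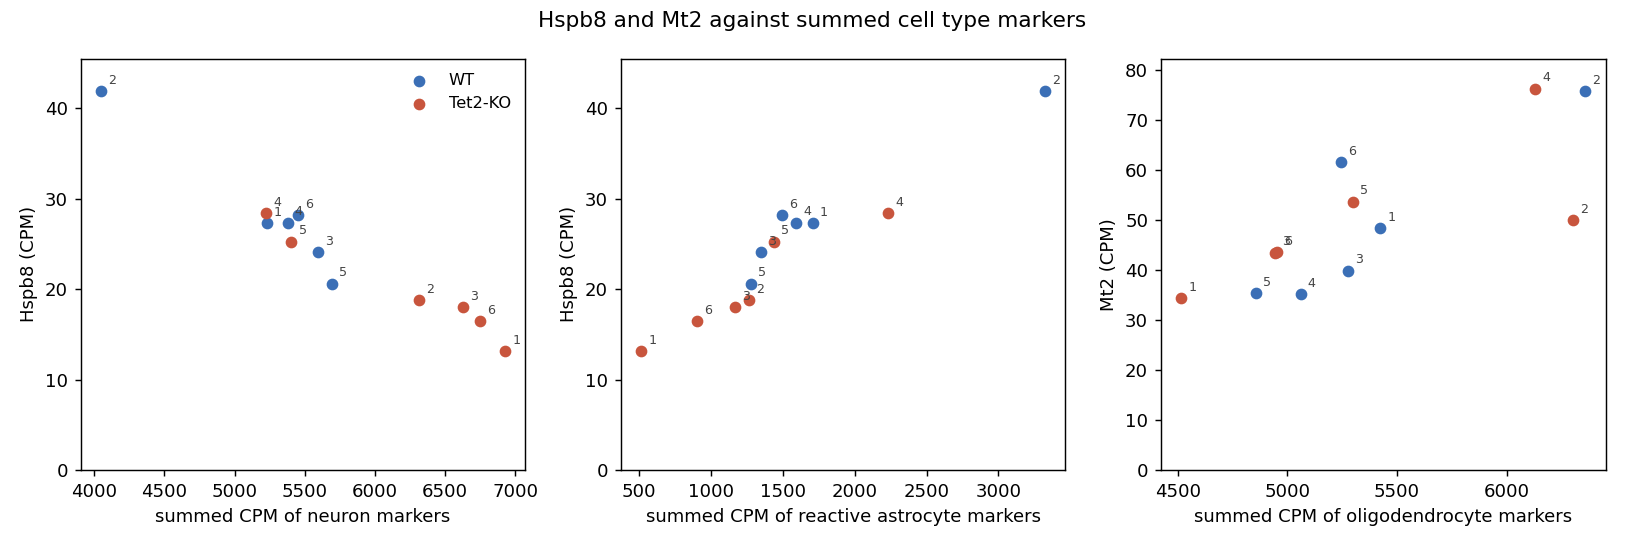
Level of Hspb8 (CPM) against the summed CPM of 10 neuronal and of 8 reactive astrocyte markers, and of Mt2 against that of 7 oligodendrocyte markers, in the 12 libraries numbered by replicate, with WT in blue and Tet2-KO in red. Hspb8 falls along the neuronal axis and climbs along the reactive astrocyte axis in both groups, and Mt2 is highest in the WT replicate 2 and Tet2-KO replicate 4 libraries.

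Other genes of the same pathways were counted at the same unadjusted threshold by edgeR, which 12.2% of all tested genes passed toward lower and 10.8% toward higher levels. Calls after adjustment by DESeq2, which numbered 937 lower and 527 higher among 19500 genes, are given beside them. Of 23 other chaperones and cochaperones tested, 1 was lower and 2 were higher, with a median log2 fold change of 0.01, and DESeq2 called the same 3 after adjustment. The lower one was *Bag3*, the partner of *Hspb8*, at 26.3 ± 5.74 CPM (SD, n = 6) in WT and 19.1 ± 3.90 CPM (SD, n = 6) in *Tet2*-KO brains (log2 fold change -0.46, SE 0.15, adjusted p = 0.131, edgeR). The higher ones were *Hspa2*, an HSP70 best known from the testis (0.17, SE 0.057, adjusted p = 0.128, edgeR), and *Dnajb4*, an HSP40 (0.16, SE 0.054, adjusted p = 0.130, edgeR). None of the 4 heat shock transcription factors tested passed in either direction, and their median log2 fold change was 0.13. The smallest p were those of *Hsf5* (0.32, SE 0.16, adjusted p = 0.240, edgeR), *Hsf2* (0.13, SE 0.070, adjusted p = 0.286, edgeR) and *Hsf4* (0.13, SE 0.086, adjusted p = 0.365, edgeR), and *Hsf1* had a log2 fold change of 0.01 (SE 0.067, adjusted p = 0.929, edgeR).

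Of 22 other genes of the endoplasmic reticulum stress response, 8 were lower and 0 higher by edgeR, with a median log2 fold change of -0.14, and DESeq2 called 4 lower after adjustment. *Pdia6* and *Pdia3*, which form and shuffle disulfide bonds, had log2 fold changes of -0.24 (SE 0.070, adjusted p = 0.121, edgeR) and -0.25 (SE 0.076, adjusted p = 0.123, edgeR). *Sdf2l1*, a cochaperone of BiP, lay at 8.64 ± 2.00 CPM (SD, n = 6) in WT and 6.08 ± 1.23 CPM (SD, n = 6) in *Tet2*-KO brains (log2 fold change -0.50, adjusted p = 0.125, edgeR). These values lay on the same side as that of *Hspa5*.

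Of 13 genes of zinc and metal handling tested, 3 were lower and 2 higher, with a median log2 fold change of -0.04, and DESeq2 called 2 lower and 1 higher after adjustment. *Slc39a14*, an importer of zinc and iron, was the strongest (log2 fold change -0.44, SE 0.087, adjusted p = 0.104, edgeR). *Slc30a3*, which loads zinc into synaptic vesicles of neurons, had a log2 fold change of 0.48 (SE 0.14, adjusted p = 0.123, edgeR), and the zinc exporter *Slc30a4* 0.15 (adjusted p = 0.159, edgeR).

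Genes of pathways that can raise metallothioneins besides metals, and immediate early genes, were counted in the same way. Of 16 genes of the oxidative stress response 8 were lower and 0 higher, with a median log2 fold change of -0.19 and 6 lower by DESeq2 after adjustment, led by the cystine importer *Slc7a11* (-0.90, adjusted p = 0.110, edgeR), *Osgin1* (-0.89, adjusted p = 0.115, edgeR) and the peroxiredoxin *Prdx1* (-0.29, adjusted p = 0.125, edgeR). Of 10 genes of STAT3 signalling 7 were lower and 0 higher, with a median log2 fold change of -0.72 and 3 lower by DESeq2 after adjustment, led by *Timp1* (-0.96, adjusted p = 0.116, edgeR), *Socs3* (-1.38, adjusted p = 0.117, edgeR) and *Bcl3* (-1.20, adjusted p = 0.128, edgeR). This list shares 4 genes, *Gfap*, *Lcn2*, *Osmr* and *Serpina3n*, with the reactive astrocyte markers. Of 12 glucocorticoid-induced genes 2 were lower (*Errfi1* and *Cdkn1a*) and 1 higher (*Tsc22d3*), with a median log2 fold change of 0.13, and DESeq2 called the 2 lower ones after adjustment. Of 12 immediate early genes 1 was lower, the stress-induced factor *Atf3* (-1.44, adjusted p = 0.130, edgeR), and the next were *Jun* at -0.15 and *Ier2* at -0.37. After adjustment by DESeq2 *Atf3* was the 1 gene called of this list. No pathway gene named here passed 0.05 after adjustment by edgeR, so these calls depend on the tool.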

How the data were processed

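After depletion of ribosomal RNA, the authors sequenced paired reads of 150 bases, trimmed them with Trimmomatic 0.36, aligned them to mm10 with STAR 2.5.2b and counted uniquely mapped exonic reads with featureCounts of Subread 1.5.2, per the study's methods and the submitters' processing notes. The deposited values are raw counts per gene without normalization. Ensembl identifiers were paired with symbols through GENCODE M21 (48970 of 49315 genes). Coordinates are those of that annotation, and upstream sequences those of RefSeq (GRCm38.p6, the same assembly).

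From the counts, genes passing filterByExpr were scaled with TMM and tested with the quasi-likelihood test of edgeR 4.0.16 in R 4.3.3 (robust fit, 12 libraries, no covariates), with Benjamini-Hochberg adjustment over 20290 genes and a threshold of 0.05. All 10 stress genes passed the filter. The SE is the absolute log2 fold change over the root of F. A prior count of 2 entered log2 CPM, and a pseudocount of 0.1 CPM the exact permutation tests (924 assignments). Alternatives were the Wald test of DESeq2 1.42.0, limma-voom 3.58.1 with quality weights, other scalings and filters, a block by replicate number, libraries left out and, for the spread, DESeq2's variance stabilizing transformation. Libraries of one group differed by more than sampling noise (chi-square per degree of freedom from 2.01 to 27.7) and each was counted once. Each library is 1 mouse per the study, and the labels give no batch. The stress genes and all lists were chosen with earlier results of these data known. Named in the text are all 10 genes, from each pathway list every gene past the adjusted threshold and the 3 with the smallest p, at most 2 from each marker list, and the 3 genes of most like pattern. *Hsf1*, *Gfap*, *Lcn2*, *Osmr*, *Serpina3n*, *Apoe* and *Csf3r* were named after their values were seen. The correlations without WT replicate 2 and *Tet2*-KO replicate 5 were added after seeing the data.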

Additional observations from a re-analysis of the deposited data

Results flagged for a closer look

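In groups of 6, a library was set apart where its gap to the nearest other exceeded Dixon's limit as a share of the group's range, over the 10 genes and 3 ratios in both groups. This happened 5 times in 26 groups checked. For normal values chance alone gives about 1 in 20. The groups are not independent, because the ratios use the counts of the same genes, so the number of flags was not tested against chance. *Hspa1b* was high in *Tet2*-KO replicate 1 (8.36 CPM), as was *Hspa5* in WT replicate 1 (186 CPM). *Mt1* was high in *Tet2*-KO replicate 4 (288 CPM). The log2 ratio of *Hspa1a* to *Hspa1b* was high in WT replicate 2 (1.17), where *Hspa1b* was at its lowest, and the log2 ratio of *Mt1* to *Mt2* was high in WT replicate 4 (2.28). The causes were not tested.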

How the results depend on the processing

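None of the 10 genes passed the adjusted threshold under any alternative run. The number with an unadjusted p below 0.05, 3 in edgeR, was 1 without WT replicate 2 and *Tet2*-KO replicate 5 together (*Hspb8*) and ranged from 0 to 3 with 1 library left out in turn. Over all genes, the 5 calls became 1464 with DESeq2, 902 with DESeq2 on all genes with a count (chosen after seeing the data), 1863 with limma-voom, 44 without a filter, 0 with at least 10 counts in every library, 1554 without both libraries named above, and 0 to 2257 with 1 library left out, the highest without *Tet2*-KO replicate 5. The cause was not tested. The genes with separate groups numbered 0 to 1 with 1 library left out, the 1 being found without *Tet2*-KO replicate 4.

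The log2 fold changes kept their sign in 201 of 210 values. The 9 that turned all left out 1 library. Over the libraries left out in turn the log2 fold change ranged from -0.048 to 0.12 for *Hspa1a*, negative without WT replicate 3 (-0.013), WT replicate 5 (-0.024) or *Tet2*-KO replicate 1, from -0.033 to 0.25 for *Mt1*, negative without *Tet2*-KO replicate 4, from -0.13 to 0.19 for *Mt2*, negative without WT replicates 3 (-0.026), 4 (-0.053) or 5 (-0.049) or *Tet2*-KO replicate 4, and from -0.00055 to 0.065 for *Mt3*, negative without WT replicate 5. The difference between the groups in the log2 ratio of *Mt3* to *Mt1* plus *Mt2* ranged from -0.17 to 0.059 and turned without *Tet2*-KO replicate 4.

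With a replicate block the count over all genes was 0 and that of the 10 genes with an unadjusted p below 0.05 was 3. Same-numbered libraries deviated from their group means with correlations between -0.17 and 0.23, and 1 of 6 correlated best with its own number. These values gave no sign that the numbers pair the mice, but they cannot exclude it, and the labels give no pairing. On same-numbered differences, an exact sign-flip test gave p = 0.375, 0.531 and 0.781 for the ratios of *Hspa1a* to *Hspa1b*, *Mt1* to *Mt2* and *Mt3* to the sum.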
